A study of Jaculus jaculus with 13 samples.

Results

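The comparison described here is dehydration against control in the whole left kidney of male Jerboas (Jaculus jaculus, the lesser Egyptian jerboa, a desert rodent). Its members are the 4 animals labelled as dehydrated and the 4 labelled as controls, 8 of the 13 animals of the series, taken from the labels and from no measured value. Controls had free access to water. The labels give 11 days of water restriction for the dehydrated animals, whereas the methods of the study give 10 days for males. The other 5 animals had 7 days of restriction followed by 3 days with water (rehydration) by the labels, and a longer return of water by the methods. They entered the same fit and are otherwise used only where said. The study reports lower RNA integrity in the rehydration group than in the other groups. The rehydrated animals had total counts of 14071802 (RHM07) to 19267059 (RHM02). The part of RNA integrity and depth in the differences between rehydration and dehydration was not tested. All animals were wild caught adults of unknown age, assigned to the groups at random, housed singly at a constant temperature and fed dry pellets. Each animal is 1 replicate, and the animals are named CM (control male), DHM (dehydration male) and RHM (rehydration male) with the number of the label.

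A dehydrated mammal saves water by concentrating its urine. Vasopressin places AQP2 water channels in the luminal membrane of collecting duct principal cells, and water leaves these cells on the blood side through AQP3 and AQP4. Cells of the medulla, which then face a salty interstitium, take up organic osmolytes such as betaine through dedicated carriers.

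After dehydration compared to control, 47 genes were higher and 25 were lower out of 15064 tested. These differentially expressed genes (DEGs) were 0.478% of the tested genes, 0.312% higher and 0.166% lower. Among those with a known name, the follistatin gene FST rose 4.82-fold, the water channel AQP3 3.31-fold, the betaine carrier SLC6A12 3.16-fold and the glutamine carrier SLC38A3 2.90-fold. The nuclear receptor gene ESRRB rose 1.63-fold, and SMAD7, an inhibitor of BMP and TGF-beta signalling, fell to 0.623 of its control level. AQP2 was 2.81-fold higher but had an adjusted p-value just over the threshold. Of the 72 DEGs, 6 are named here, since names come only from 38 genes that the study pairs with an identifier.

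A gene was called a DEG at an adjusted p-value under 0.01 in the quasi-likelihood F-test of edgeR, with p-values adjusted by Benjamini-Hochberg over all tested genes. The count depends on the tool and on single animals. DESeq2's Wald test on the same counts called 949 genes (6.3% of those tested), 417 higher (2.77%) and 532 lower (3.53%), and all 72 were among them. With an offset for gene length edgeR called 61 higher and 50 lower genes. Before adjustment, 1830 genes on the higher and 1823 on the lower side had a p-value under 0.05, 12.1% of the tested genes each. Thus many genes lay close to the threshold: 24 of the 72 DEGs had an adjusted p-value of 0.009 or more, and a further 216 genes had one from 0.01 to under 0.02.

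CPM are counts scaled by the library size. Total counts were 18648494 to 22949762 in the 8 animals, so that a floor of 3 counts was 0.133 to 0.157 CPM. Principal component 1 of the 8 animals (28.1% of the variance) placed the controls between -50.6 and -10.7 and the dehydrated animals between 23.8 and 35.1. CM01 (49.8) and DHM03 (31.2) were highest on component 2 (22.2%). These animals also had the highest summed level of 254 immune-term genes that the study lists from a network of these same animals, 17206 CPM in CM01 and 6262 CPM in DHM03, against 2141 to 3756 CPM in the 6 others. The summed level did not differ between the groups by more than the spread of the animals (6479 ± 7172 CPM in controls and 4138 ± 1477 CPM after dehydration, SD, n = 4 each, exact permutation test, two-sided, p = 0.914). None of the 254 genes was called by edgeR, beside 0.478% of all tested genes. Of them 8 had an unadjusted p-value under 0.05, 1 higher and 7 lower, whereas 24.2% of all tested genes had such a p-value. The study reports high levels in CM01, RHM01 and DHM03 for the module of that network that held immune terms. The list was thus drawn from levels in these animals, so its sums and its low shares are no independent evidence. The median log2 fold change of the 254 genes was -0.40, beside 0.0044 over all tested genes. Without CM01, an alternative chosen after seeing the data, it turned to 0.32 over the 248 of them in that fit. The summed level of the other controls was 2903 ± 669 CPM (SD). The mitochondrial genome held 11.2% ± 1.21 of the counts in controls and 10.1% ± 0.559 after dehydration (SD, n = 4 each, exact permutation test, two-sided, p = 0.143).

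**Figure D1:**
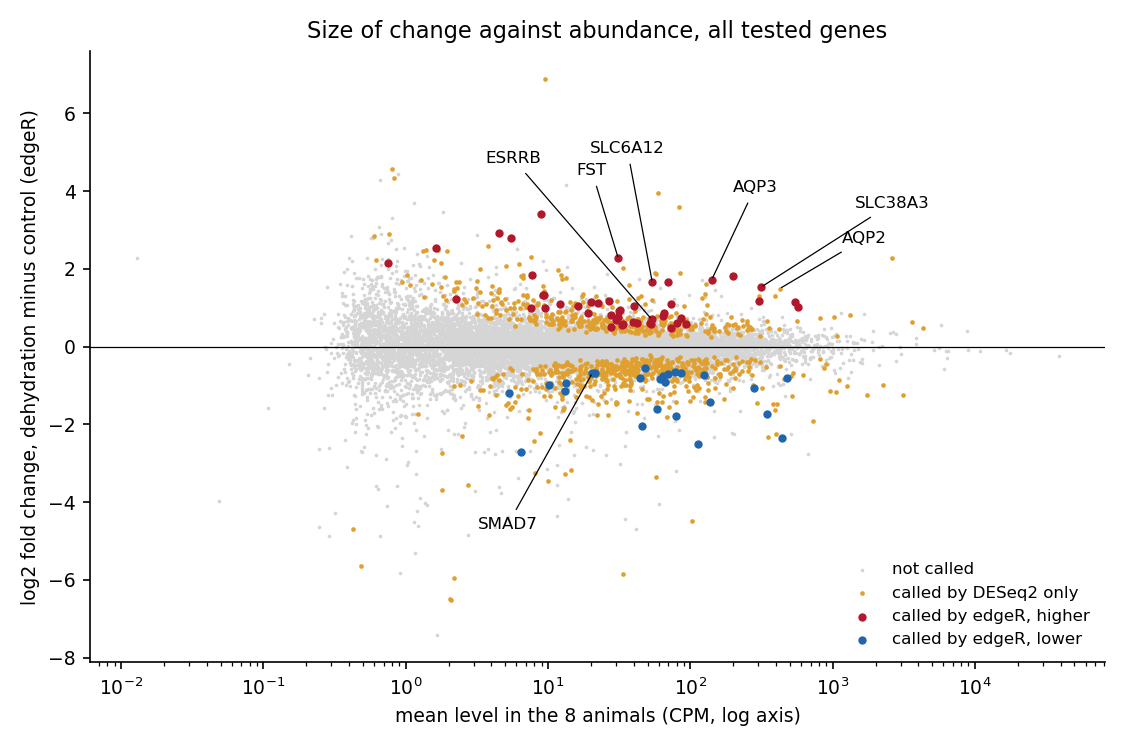
Log2 fold change of dehydration minus control (y axis, edgeR) against the mean level in the 8 animals (x axis, CPM on a log axis) for the 15064 tested genes, where red and blue points are the 47 higher and 25 lower DEGs of edgeR, amber points the genes called by DESeq2 only, and gray points the rest. Of the DEGs of edgeR, 4 lie among the 3766 genes of lowest CPM and 29 among the 3766 of highest CPM, and AQP2 is among the amber points.

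Of the 47 higher genes, 22 changed less than 2-fold, 19 between 2-fold and 4-fold and 6 more than 4-fold. Of the 25 lower genes the numbers were 14, 7 and 4. The median log2 fold change was 1.05 for the higher genes (range 0.48 to 3.41) and -0.93 for the lower genes (-0.56 to -2.70), beside a median of 0.0044 over all tested genes, whose median absolute log2 fold change was 0.22. The smallest change that was called was larger than that of 77.8% of all tested genes.

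A large fold change alone did not make a DEG. Among the tested genes 910 differed at least 2-fold, 438 higher and 472 lower, and 36 of them were called. Those that were not called had a median level of 2.51 CPM and a median standard error of 0.57 on the log2 scale, against 0.21 for the 36 called. In 323 of those not called the groups nevertheless did not overlap, beside 2882 (19.1%) of all tested genes. The DESeq2 DEGs reached smaller changes, with 679 of 949 under 2-fold, a smallest absolute log2 fold change of 0.23 and medians of 0.69 (higher) and -0.70 (lower).

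The DEGs were found from rare to abundant transcripts. Levels in CPM, which also give the number of counts behind a gene, ranged from 0.756 to 575 CPM among the higher and from 5.28 to 481 CPM among the lower genes, with medians of 32.3 and 64.6 CPM beside 19.4 CPM over all tested genes. When the tested genes were divided by CPM into 4 classes of 3766 genes, 4, 15, 24 and 29 were called from the lowest to the highest class. All 4 of the lowest class were higher, whereas the highest class held 14 higher and 15 lower genes. The median standard error was 0.38 in the lowest and 0.12 in the highest class. In 4 classes by FPKM, which is per length, there were 9, 16, 24 and 23 DEGs, and the median levels were 22.8 FPKM (higher), 25.8 FPKM (lower) and 14.7 FPKM (all tested). The higher genes together took 0.218% of the counts in controls and 0.485% after dehydration, and the lower genes 0.379% and 0.160%. The exons of the DEGs summed to a median of 1734 bases (higher) and 1650 bases (lower), beside 1320.5 bases over all tested genes. In the JacJac1.0 assembly the higher genes lay on 38 scaffolds and the lower genes on 24, and the closest pair of DEGs, FST and a gene 384079 bases from it, both rose.

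Each DEG separated the groups completely. The DEGs were chosen by a test on these same animals, so their separation, spread and medians per animal are no independent evidence. In all 72, every dehydrated animal lay above or below every control, as did 19.1% of all tested genes (8.82% higher and 10.3% lower) and 901 of the 949 genes called by DESeq2. The nearest 2 animals of the different groups stood at least 1.19-fold apart in every DEG, 1.45-fold apart in the median and 2-fold or more in 11 DEGs. The spread within groups was similar on both sides, with a median coefficient of variation over the DEGs of 12.4% in controls and 10.7% after dehydration, beside 14.3% and 13.1% over all tested genes. No DEG had fewer than 3 counts in any of the 8 animals.

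**Figure D2:**
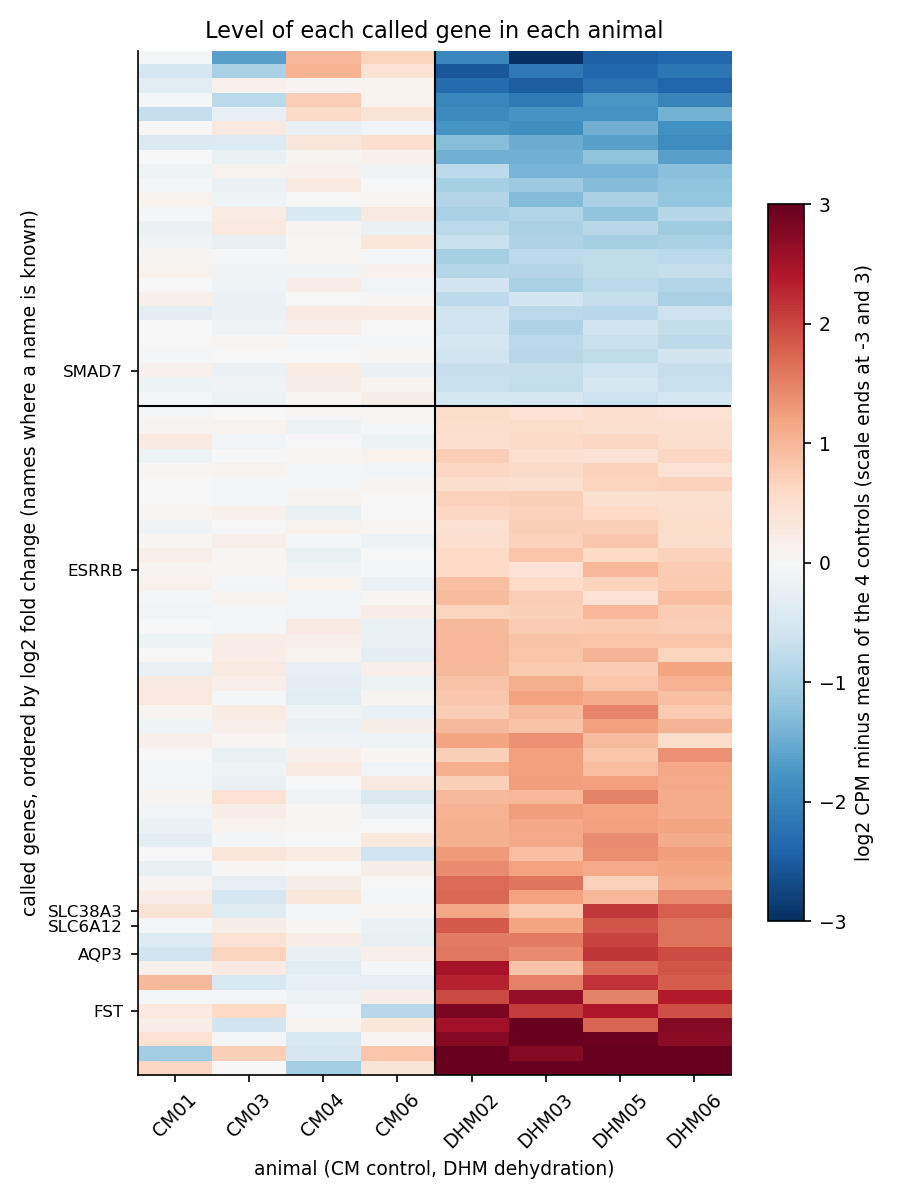
Level of the 72 DEGs (rows, ordered by log2 fold change, with names where known) in each of the 8 animals (columns), as log2 CPM minus the mean of the 4 controls, with the color scale ending at -3 and 3. All 4 dehydrated animals share the direction of change in all 72 genes, and the controls vary around 0.

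The 4 dehydrated animals had similar medians. The median log2 ratio of a dehydrated animal to the control mean over the 47 higher genes was 0.97 in DHM02, 0.93 in DHM03, 1.00 in DHM05 and 1.07 in DHM06. Over the 25 lower genes it was -0.86, -0.97, -0.98 and -0.98 in the same order. Among the controls CM03 lay nearest to the dehydrated animals, with medians of 0.88 and -0.80 between the dehydration mean and this animal, and it was the highest control in 18 of the 47 higher genes and the lowest in 13 of the 25 lower genes. DHM05 was the highest dehydrated animal in 17 of the 47 higher genes and DHM06 in 3.

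How many genes passed the threshold changed with each animal left out. Without CM01 edgeR called 37 genes, without CM03 46, without CM04 6 and without CM06 1. Without DHM02 it called 18, without DHM03 11, without DHM05 2 and without DHM06 7. These fits had 3 animals in 1 group, and of the 72 DEGs 26 were called without CM01 and 30 without CM03. Leaving out RHM01, an animal of neither group that enters the shared estimate of the spread, the scaling and the filter on low counts, gave 235 DEGs, 88 higher and 147 lower, with all 72 among them. The animal that was left out can then be set against the calls made without it. CM01 lay beyond all 4 dehydrated animals on the control side in 35 of the 37 genes called without it, CM03 in 43 of 46 and DHM02, beyond all 4 controls, in 16 of 18. CM04, CM06, DHM03, DHM05 and DHM06 did so in every gene called without them. The share of all tested genes in which each animal lay so is not given here, so these counts have no baseline.

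Of the 72 DEGs, 29 were called in none of these 8 fits, 21 in 1 and 12 in 2, and 4 were called in 6 or more. The only gene called in all 8 was ENSJJAG00000016880 (scaffold JH725450.1 from 34373970 to 34377838, JacJac1.0), for which the files give no name. Its level was 585, 801, 777 and 780 CPM in CM01, CM03, CM04 and CM06, and 147, 132, 154 and 141 CPM in DHM02, DHM03, DHM05 and DHM06. CM01 was thus the lowest control and still 3.81 times above the highest dehydrated animal. The gene fell by 2.36 on the log2 scale (standard error 0.12, edgeR adjusted p = 3.39e-07), the lowest adjusted p-value of all genes. In the rehydrated animals it was at 152 ± 14.1 CPM (SD, n = 5), and the log2 difference of rehydration minus dehydration was 0.09 (standard error 0.10, adjusted p = 0.573), a test that shares the dehydrated animals.

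The rise with the lowest p-value was that of ENSJJAG00000009663 (scaffold JH725467.1 from 1005730 to 1012733), also unnamed in the files. It was low in controls (2.17, 1.42, 0.690 and 1.83 CPM in CM01, CM03, CM04 and CM06, from 14 to 49 counts) and stood at 24.3, 13.5, 14.3 and 13.1 CPM in DHM02, DHM03, DHM05 and DHM06. DHM02 was the highest and the others were close together. The log2 fold change of 3.41 (edgeR, SE 0.35, adjusted p = 0.00154) was the largest of all DEGs, and the gene was called in 7 of the 8 fits that left out an animal. After rehydration it was lower than after dehydration by a log2 difference of -1.50 (standard error 0.30, adjusted p = 0.00515).

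The DEG with the highest mean CPM in each direction is given next. ENSJJAG00000024274 (JH725508.1 from 10594155 to 10609373) rose from 381 ± 51.0 CPM to 769 ± 82.1 CPM (SD, n = 4 each), that is by 1.01 on the log2 scale (standard error 0.14, edgeR adjusted p = 0.00644). Its controls ranged from 329 to 427 CPM and its dehydrated animals from 685 to 881 CPM. ENSJJAG00000012504 (JH725463.1 from 1125424 to 1209779) fell from 612 ± 52.5 to 350 ± 20.3 CPM (SD, n = 4 each). On the log2 scale this was -0.80 with a standard error of 0.12 (edgeR adjusted p = 0.00717), with 564 to 663 CPM in controls and 329 to 374 CPM after dehydration. Each was called in 1 of the 8 fits that left out an animal.

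The genes with a name were grouped by role. The study named them with these animals in view, so their directions are no independent evidence. Of the 38 named genes 36 were tested, and 5 were higher and 1 lower among them, beside 0.312% and 0.166% of all tested genes. In whole kidney RNA, fewer cells of a type and less RNA per cell cannot be told apart. Markers were listed for 15 cell types of kidney, blood, fat and adrenal cortex. Of these markers 3 of 72 could be matched, all for principal cells of the collecting duct (AQP2, AQP3 and SCNN1G), so the cell makeup of the samples was not assessed further. AQP1, the channel of the proximal tubule and thin descending limb, was at 754 CPM in controls.

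Of the water channels 8 of the 11 listed could be matched and tested, and AQP3 was the only DEG. Of all tested genes 0.312% were called higher and 0.166% lower. The median log2 fold change of the 8 was 0.27. AQP3, the basolateral channel of the principal cell (ENSJJAG00000004334, JH725462.1 from 5715215 to 5720268), stood at 41.3, 99.6, 53.0 and 68.9 CPM in CM01, CM03, CM04 and CM06, and at 185, 166, 276 and 242 CPM in DHM02, DHM03, DHM05 and DHM06. The lowest dehydrated animal, DHM03, was 1.67 times the highest control, CM03. AQP3 rose by 1.73 on the log2 scale (standard error 0.25, adjusted p = 0.00644 in edgeR, 2.80e-09 in DESeq2) and was called in 2 of the 8 fits that left out an animal.

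AQP2, the luminal channel of the same cells (ENSJJAG00000021696, JH725438.1 from 621935 to 628080), was the first gene outside the threshold. Its controls CM01, CM03, CM04 and CM06 were at 191, 273, 210 and 217 CPM, and DHM02, DHM03, DHM05 and DHM06 at 540, 609, 774 and 582 CPM. The nearest animals of the groups were further apart than in AQP3, with the lowest dehydrated animal 1.97 times the highest control. The rise itself was smaller, 2.81-fold against 3.31-fold. The log2 difference was 1.49 (standard error 0.25, adjusted p = 0.0103 in edgeR), and DESeq2 called the gene (adjusted p = 8.25e-07). Per length AQP2 was the more abundant of the pair, at 690 FPKM after dehydration against 244 FPKM for AQP3.

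Both were lower after rehydration than after dehydration. The log2 difference was -1.72 for AQP2 (standard error 0.24, adjusted p = 0.00137) and -1.66 for AQP3 (standard error 0.23, adjusted p = 0.00137), where 5.5% of all tested genes were called lower. The rehydrated animals ranged from 100.2 to 290.0 CPM for AQP2 and from 57.7 to 88.2 CPM for AQP3, below every dehydrated animal.

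The other water channels did not pass. AQP1 had a log2 difference of 0.29 (adjusted p = 0.308), with 706 to 821 CPM in controls and 817 to 1038 CPM after dehydration. AQP4, the second basolateral channel, was at 0.0986 to 0.266 CPM in controls and 0.254 to 0.912 CPM after dehydration, with 57 counts in the 8 animals together, and did not pass (log2 difference 1.32, standard error 0.51, adjusted p = 0.130). The lowest AQP4 value, in CM04, rested on 2 counts, under the floor of 3 counts. AQP11, an intracellular channel of the proximal tubule, averaged 34.0 CPM in controls and 22.6 CPM after dehydration without overlap of the groups, with a log2 difference of -0.59 (adjusted p = 0.101). AQP6, AQP7 and AQP8 had log2 differences of 0.18, -0.03 and 0.24 with adjusted p-values of 0.693, 0.954 and 0.839, and their groups overlapped.

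**Figure D3:**
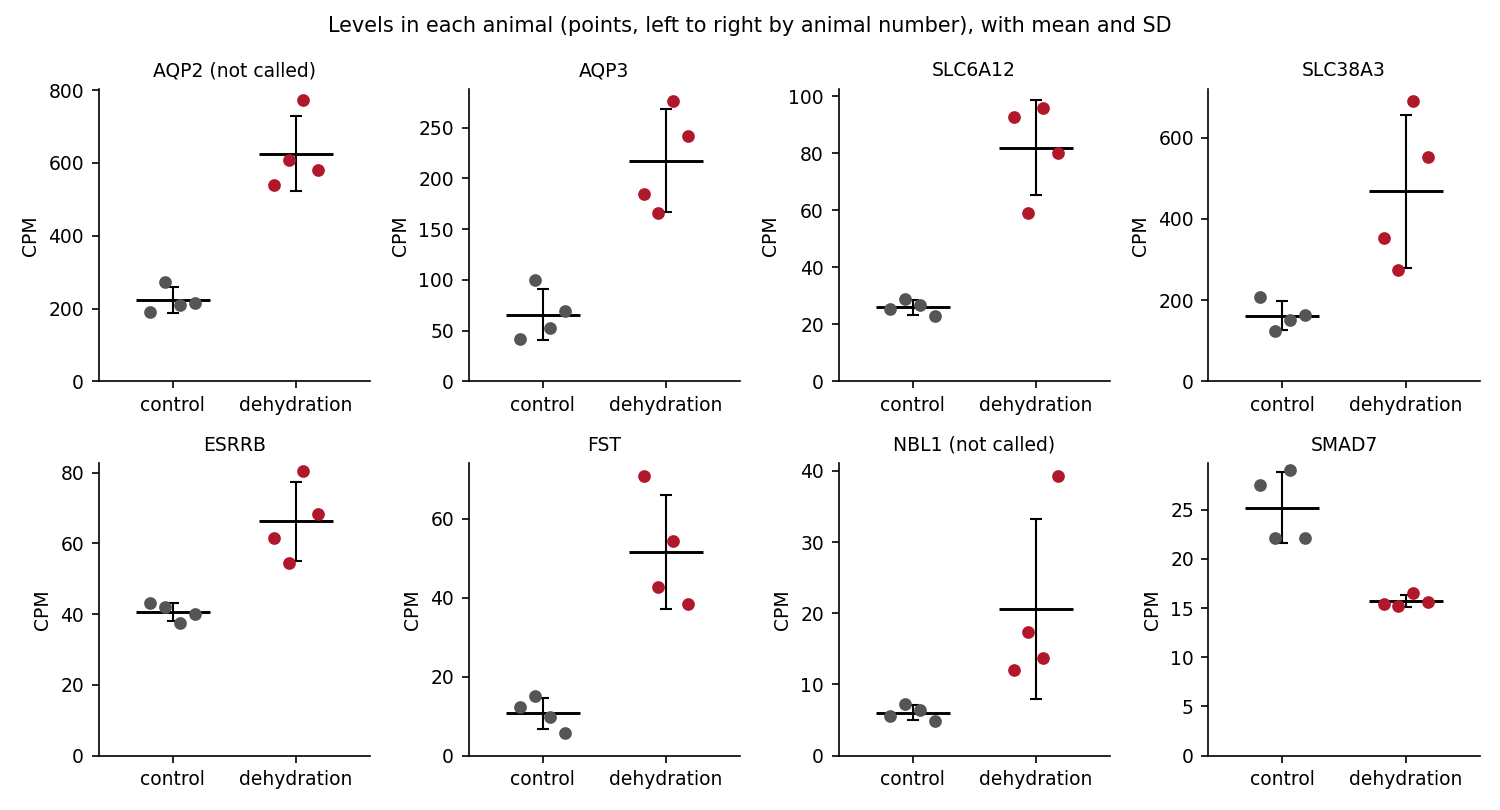
Level in CPM (y axes, starting at 0) of 8 named genes in each control (gray) and dehydrated (red) animal, ordered by animal number, with horizontal lines for the mean and bars for the SD (n = 4). In all 8 genes the groups do not overlap, SMAD7 is the only one that is lower after dehydration, and AQP2 and NBL1 were not called by edgeR.

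Of the 3 solute carriers that could be matched, 2 rose (SLC6A12 and SLC38A3), beside 0.312% of all tested genes. The study named all 3 from a network module of these same animals whose DEGs all rose after dehydration. It placed most of the solute carriers it analysed in a different module, whose DEGs almost all fell. The share of 2 in 3 therefore says nothing about solute carriers as a class. Of 17 genes listed for osmolyte accumulation and urea 2 could be matched, SLC6A12 and the nuclear receptor gene ESRRB, and both rose. ESRRB is not a carrier, and the study named both genes for their high connectivity in that same module. Their rise is therefore no independent evidence about osmolyte genes, and the other listed genes could not be looked at. The median log2 fold change of SLC6A12, SLC38A3, SLC17A3 and ESRRB was 1.12. SLC6A12 carries betaine into cells and is a known target of the tonicity-responsive factor NFAT5 (ENSJJAG00000018463, JH725563.1 from 1273607 to 1294715). It was at 25.3, 29.0, 26.7 and 22.8 CPM in CM01, CM03, CM04 and CM06 and at 92.9, 59.1, 95.9 and 80.2 CPM in DHM02, DHM03, DHM05 and DHM06. The controls were close together and DHM03 was the lowest dehydrated animal, at 2.04 times the highest control. SLC6A12 rose by 1.66 on the log2 scale (standard error 0.18, adjusted p = 0.00210 in edgeR), and it was the named gene called most often when an animal was left out, in 6 of 8 fits. After rehydration it was lower than after dehydration (log2 difference -0.89, standard error 0.17, adjusted p = 0.00407).

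SLC38A3 takes up glutamine in the proximal tubule, where it feeds ammonia production (ENSJJAG00000001766, JH725506.1 from 1801777 to 1812944). Controls CM01, CM03, CM04 and CM06 were at 208, 123, 152 and 163 CPM, and DHM02, DHM03, DHM05 and DHM06 at 354, 275, 692 and 551 CPM. The dehydrated animals differed more from each other than the controls did, with an SD of 189 CPM against 35.3 CPM. SLC38A3 rose by 1.53 on the log2 scale (standard error 0.26, adjusted p = 0.00965 in edgeR), and the gene was called in 1 of the 8 fits that left out an animal, with a log2 difference of 1.26 without DHM05 (adjusted p = 0.0235). Rehydration minus dehydration was -1.31 (standard error 0.24, adjusted p = 0.00361).

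ESRRB, an orphan nuclear receptor (ENSJJAG00000007076, JH725437.1 from 55960034 to 56018213), had controls close together. It was at 43.2, 42.1, 37.5 and 39.9 CPM in CM01, CM03, CM04 and CM06 and at 61.4, 54.5, 80.5 and 68.4 CPM in DHM02, DHM03, DHM05 and DHM06. ESRRB rose by 0.70 on the log2 scale (standard error 0.12, adjusted p = 0.00965 in edgeR). It was called in 0 of the 8 fits that left out an animal, where its adjusted p-value was 0.0122 to 0.0334. SLC17A3, a phosphate and urate transporter of the proximal tubule, was at 162 to 197 CPM in controls and 239 to 262 CPM after dehydration and was not called (log2 difference 0.51, standard error 0.12, adjusted p = 0.0263), whereas DESeq2 called it (adjusted p = 0.00136).

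Over AQP2, AQP3, SLC6A12, SLC38A3, ESRRB and FST, DHM05 was the highest dehydrated animal in 5 of 6 genes and DHM03 the lowest in 4 of 6. NBL1, SLC17A3 and SRSF2 were also higher without overlap and, like AQP2, called by DESeq2 only, and their order differed. NBL1 was highest in DHM06 and lowest in DHM02. SLC17A3 was highest in DHM06 (262 CPM) and lowest in DHM05 (239 CPM). SRSF2 was highest in DHM02 (213 CPM) and lowest in DHM06 (196 CPM). Over the 47 higher DEGs the lowest was DHM02 in 13, DHM03 in 11, DHM05 in 12 and DHM06 in 11. DHM03 was also the dehydrated animal with the highest summed level of immune-term genes, and the part of this in the levels of the 6 genes was not tested.

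The epithelial sodium channel, which takes up sodium in the same principal cells, had no DEG among its 3 subunits, beside 0.478% of all tested genes. The log2 differences were 0.37 for SCNN1A, 0.47 for SCNN1B and 0.44 for SCNN1G (standard errors 0.12, 0.23 and 0.14, adjusted p = 0.0833, 0.224 and 0.0778 in edgeR), and DESeq2 called none. SCNN1G was at 68.3 to 89.1 CPM in controls and 89.4 to 123 CPM after dehydration, so that the nearest animals of the groups were almost equal. In SCNN1B the highest control, CM03 at 179 CPM, lay among the dehydrated animals (126 to 188 CPM). The log2 difference of SCNN1B was 0.79 without CM03 (edgeR adjusted p = 0.0171) and 0.31 without CM01.

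Bone morphogenetic proteins (BMPs) and TGF-beta are secreted ligands that act through paired receptors and SMAD proteins, and secreted inhibitors bind BMPs before they reach the receptor. Of 44 genes listed for this signalling, 13 could be matched and tested, of which FST rose and SMAD7 fell, and 2 genes on the higher and 8 on the lower side had an unadjusted p-value under 0.05. Over all tested genes 0.312% rose and 0.166% fell, and 12.1% on each side had such a p-value. The median log2 fold change of the 13 was -0.37, beside 0.0044 over all tested genes.

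Among the inhibitors FST encodes follistatin, which binds activins and some BMPs (ENSJJAG00000014889, JH725511.1 from 8311943 to 8315729). Controls CM01, CM03, CM04 and CM06 were at 12.3, 15.1, 9.76 and 5.64 CPM, and DHM02, DHM03, DHM05 and DHM06 at 70.8, 42.8, 54.4 and 38.5 CPM. The lowest dehydrated animal was 2.54 times the highest control. FST rose by 2.27 on the log2 scale (standard error 0.31, adjusted p = 0.00559 in edgeR) and was called in 2 of the 8 fits that left out an animal. It was lower after rehydration than after dehydration (log2 difference -2.90, standard error 0.29, adjusted p = 0.000681). The rehydrated animals were at 4.78 to 9.17 CPM.

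NBL1, another BMP antagonist, was higher in every dehydrated animal and was not called. Controls were at 4.91 to 7.23 CPM and DHM02, DHM03, DHM05 and DHM06 at 12.0, 17.4, 13.8 and 39.4 CPM, so that DHM06 was far above the others. The log2 difference was 1.77 (standard error 0.36, adjusted p = 0.0178 in edgeR, 9.33e-05 in DESeq2) and 1.25 without DHM06. SOST, which encodes sclerostin, was lower in every dehydrated animal but rare (0.457 to 0.912 CPM against 1.11 to 2.46 CPM, log2 difference -1.51, standard error 0.44, adjusted p = 0.0595). SOSTDC1 and CER1 had log2 differences of 0.40 and -0.37 (adjusted p = 0.404 and 0.619) with overlapping groups. Both depended on single animals. SOSTDC1 was at 0.75 without CM03, 0.24 without CM01 and 0.16 without DHM02, and CER1 at -0.71 without DHM05, -0.66 without CM01, -0.21 without CM04 and -0.19 without CM06, none of them called. GREM1 had 59 counts in the 8 animals and was not tested, since its mean count over all 13 animals was 4.92, under the minimum of 8, and DAND5 had 0 counts in every animal, which allows at most 0.157 CPM in any of the 8.

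Inside the cell, SMAD7 blocks the receptors and marks them for degradation (ENSJJAG00000017342, JH725456.1 from 9932378 to 9959671). It was at 27.6, 22.1, 29.0 and 22.1 CPM in CM01, CM03, CM04 and CM06 and at 15.4, 15.2, 16.6 and 15.6 CPM in DHM02, DHM03, DHM05 and DHM06, with the dehydrated animals close together. SMAD7 fell by 0.68 on the log2 scale (standard error 0.11, adjusted p = 0.00965 in edgeR) and was called in 1 of the 8 fits that left out an animal, with log2 fold changes of -0.75 to -0.61. SMAD5 and SMAD9, which pass the BMP signal on to the nucleus, were lower after dehydration without overlap of the groups and were not called by edgeR. SMAD5 was at 25.9 to 43.9 CPM in controls and 16.2 to 21.1 CPM after dehydration (log2 difference -0.83, standard error 0.19, adjusted p = 0.0245 in edgeR, 0.000715 in DESeq2). SMAD9 was at 1.46 to 2.26 CPM and 0.660 to 1.37 CPM (log2 difference -0.90, standard error 0.37, adjusted p = 0.157).

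No receptor was called by edgeR, beside 0.478% of all tested genes. All 6 nevertheless had a log2 difference below 0, with a median of -0.34. Of these, 4 had an unadjusted p-value under 0.05 (12.1% of all tested genes on the lower side). BMPR2, the type II BMP receptor, was the closest, at 65.1 to 72.4 CPM in controls and 40.3 to 52.7 CPM after dehydration (log2 difference -0.61, standard error 0.13, adjusted p = 0.0213), and DESeq2 called it (adjusted p = 0.000269). BMPR2, BMPR1A and TGFBR1 were lower without overlap of the groups, as were 10.3% of all tested genes. BMPR1A and TGFBR1 were not called (log2 differences -0.37 and -0.57, adjusted p = 0.0778 and 0.0806). BMPR1B, TGFBR2 and TGFBR3 did overlap, with log2 differences of -0.32, -0.27 and -0.14 (adjusted p = 0.455, 0.112 and 0.736). BMPR1B was at -0.17 without CM04, -0.19 without DHM06 and -0.49 without DHM02, and TGFBR3 at -0.067 without CM06 and -0.24 without DHM02.

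**Figure D4:**
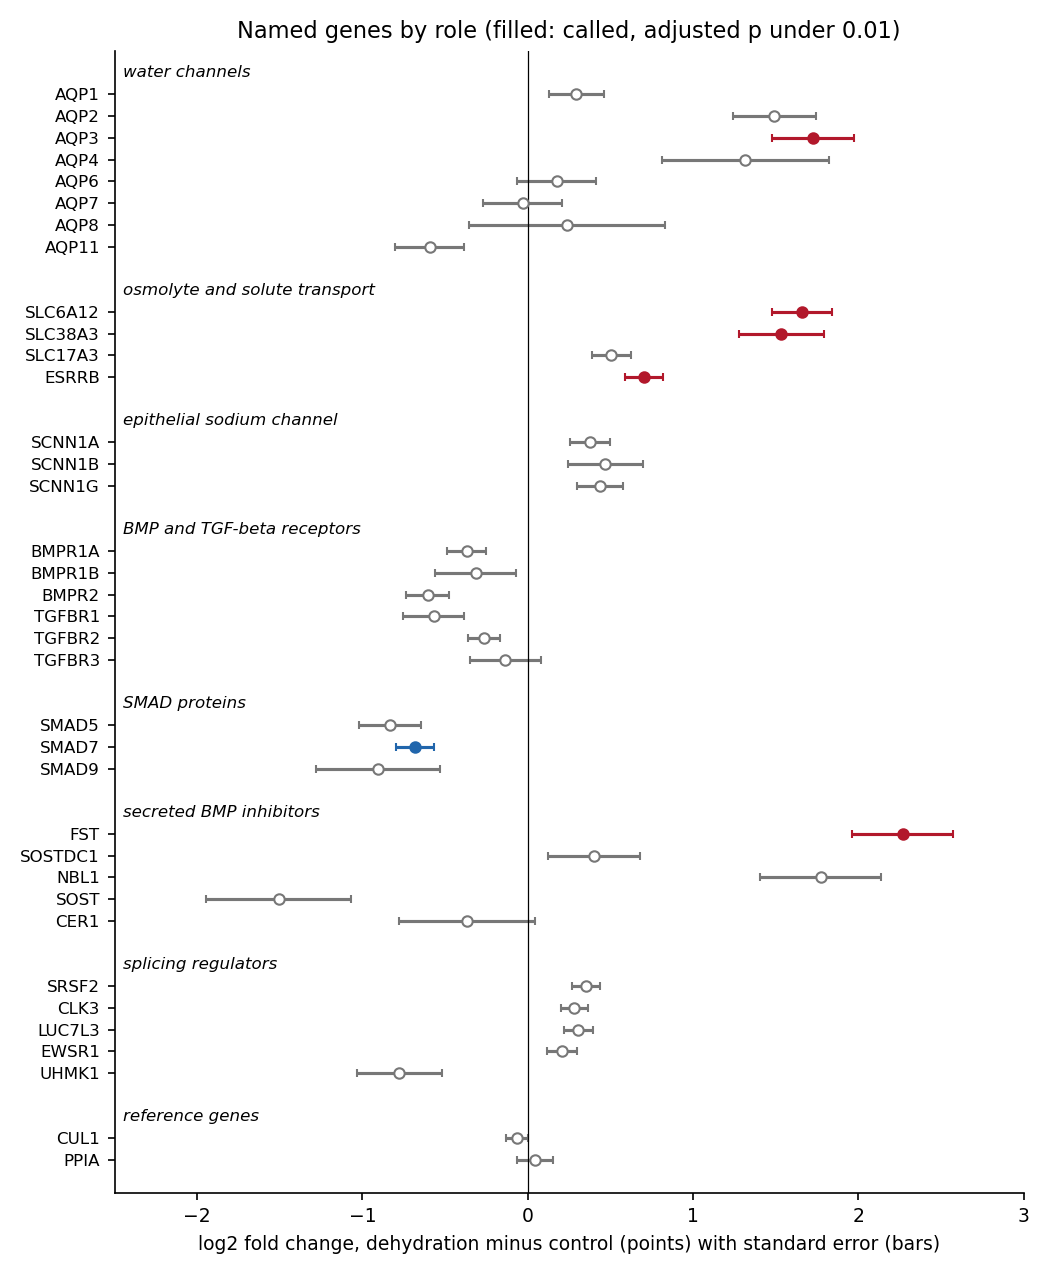
Log2 fold change of dehydration minus control (x axis, points) with its standard error (bars) for the 36 tested named genes, grouped by role, where filled points are the 6 DEGs of edgeR (red higher, blue lower) and open gray points the genes that did not pass. The receptors and SMAD proteins lie left of 0 (of these only SMAD7 passed), and the osmolyte and solute transport group, which is 3 carriers and ESRRB, right of it.

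None of the 5 splicing-linked genes was called by edgeR, beside 0.478% of all tested genes. The splicing factor SRSF2 was at 154 to 172 CPM in controls and 196 to 213 CPM after dehydration (log2 difference 0.35, standard error 0.09, adjusted p = 0.0342 in edgeR, 0.00379 in DESeq2). The kinase CLK3, the splicing factor LUC7L3 and EWSR1, an RNA-binding protein, had log2 differences of 0.28, 0.31 and 0.21 (adjusted p = 0.0571, 0.0576 and 0.190). UHMK1, a kinase of splicing factors, had a log2 difference of -0.78 (standard error 0.26, adjusted p = 0.0856). In the first 4 of these genes every dehydrated animal lay above the controls and in UHMK1 below them, as in 8.82% and 10.3% of all tested genes. CUL1 and PPIA, which the study used as reference genes in PCR, had log2 differences of -0.07 and 0.04 with standard errors of 0.06 and 0.11 (adjusted p = 0.574 and 0.832). CUL1 was at -0.14 without CM01 and -0.033 without CM06.

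The rehydrated animals show where the DEGs stood once water had returned, in a test that shares the dehydrated animals. Of the 47 higher DEGs, 9 were lower and 1 was higher after rehydration than after dehydration, with a median log2 difference of -0.15. Of the 25 lower DEGs, 9 were lower still and 1, SMAD7, was higher again (log2 difference 0.63, standard error 0.11, adjusted p = 0.00286), with a median of -0.35. Over all tested genes 8.19% were called in this comparison, 5.5% lower and 2.68% higher.

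**Figure D5:**
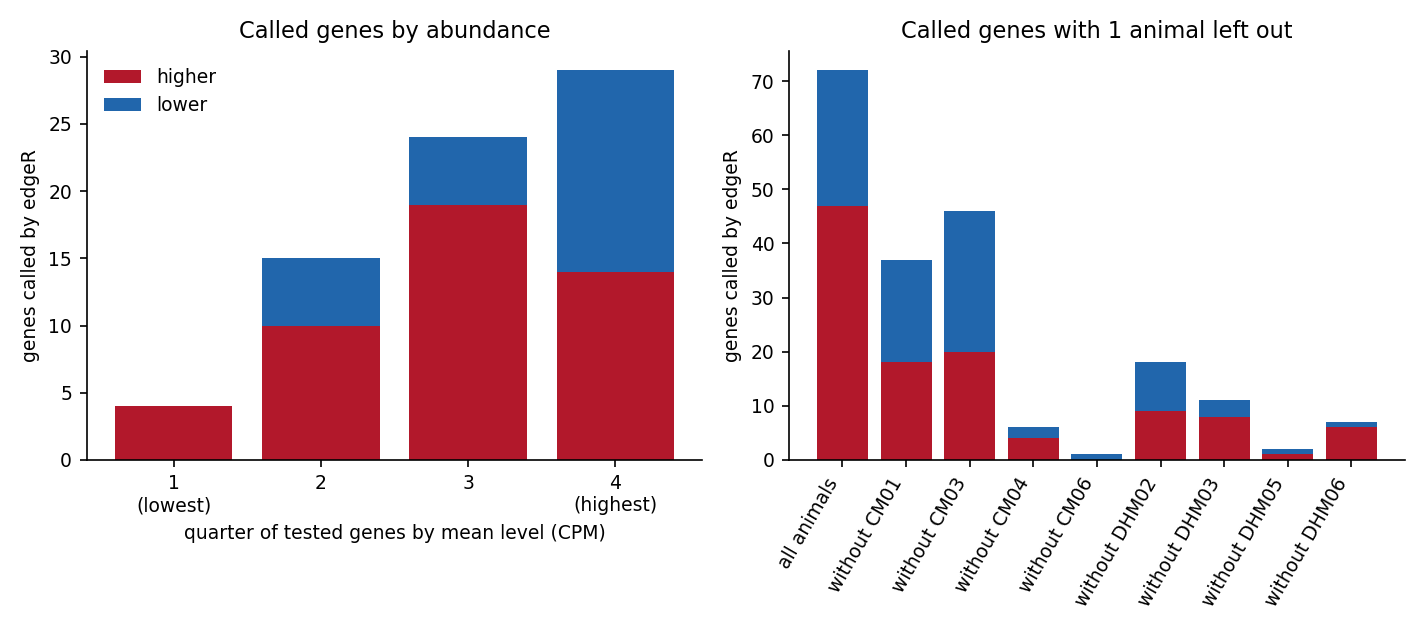
Number of DEGs of edgeR (y axes), higher in red and lower in blue. The left panel divides the tested genes into 4 classes of 3766 by mean CPM and shows 4, 15, 24 and 29 DEGs, and the right panel shows the 72 DEGs of all animals beside 1 to 46 DEGs when 1 control or dehydrated animal is left out.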

How the data were processed

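Whole left kidney polyA RNA of 13 animals was sequenced with 75 bp reads, and the 4 control and 4 dehydrated animals are compared here. The authors deposited raw counts per gene, made with featureCounts (Subread 1.6.2) on the JacJac1.0 assembly. The submitters' processing notes also name FastQC 0.11.5 and DESeq2 1.36.0. The methods give 5 animals per group, and 2 columns without a labelled sample were not used. Exon lengths deposited with the counts were used for FPKM.

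The 15064 of 24433 genes whose counts averaged 8 or more over the 13 animals were tested with edgeR 4.0.16 in R 4.3.3 (TMM, quasi-likelihood test, all 3 groups in 1 fit, Benjamini-Hochberg adjustment, threshold 0.01). CPM use TMM library sizes, and intervals and floors cover counting error only. Animals are the replicates. Alternatives were DESeq2 1.42.0, limma 3.58.1 (voom), other filters, scalings and thresholds, an animal-number block and leaving out animals. Named genes are those the study pairs with an identifier, 1 of which is not reported here, plus the genes with the lowest p-value and the highest mean CPM in each direction, chosen after their values were seen. Members and lists were chosen with earlier results of these data known. No file pairs the other identifiers with names, so 13 of 21 gene lists had no matched gene. Of pairs of animals of 1 group, none differed by as little as sampling noise, since chi-square over degrees of freedom was 29.9 to 86.8 in 12 pairs.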

Additional observations from a re-analysis of the deposited data

Results flagged for a closer look

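In 8 of the 108 groups of animals checked, 1 animal stood apart from the rest of its group by Dixon's test, where chance gives about 5%. In controls, SCNN1B was at 179 CPM in CM03 against 79.3 to 95.6 CPM in the others. SOSTDC1 was at 33.7 CPM in CM03 against 14.8 to 16.8 CPM. ENSJJAG00000016880 was at 585 CPM in CM01 against 777 to 801 CPM. The summed level of the immune-term genes was 17206 CPM in CM01 against 2141 to 3394 CPM in the other controls.

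After dehydration, CER1 was at 1.37 CPM in DHM05 against 0.666 to 0.720 CPM in the others, and ENSJJAG00000009663 was at 24.3 CPM in DHM02 against 13.1 to 14.3 CPM. After rehydration, SLC6A12 was at 62.7 CPM in RHM07 against 38.4 to 41.0 CPM, and SOSTDC1 at 26.2 CPM in RHM02 against 16.3 to 18.9 CPM.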

How the results depend on the processing

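The count of 72 DEGs (47 higher, 25 lower) was within 1.5 times under robust estimation (66), DESeq2 size factors in edgeR (67), no filter on low counts (56), edgeR's own filter (72) and a fold change over 1.5 (66). It was 949 (417 higher, 532 lower) with DESeq2, 127 (67 lower) with limma-voom, including 67 of the 72, 111 (61 higher, 50 lower) with a gene-length offset, 156 (115 lower) with only the control and dehydrated animals, of which 46 were among the 72, 141 (85 lower) without CM01 and RHM01 together, of which 47 were among the 72, and 894 (468 higher, 426 lower) at an adjusted p under 0.05. Leaving out 1 animal gave 1 to 235 DEGs, 0 to 88 higher and 1 to 147 lower, with the upper ends from leaving out RHM01, chosen after seeing the data. The causes of these differences were not tested.

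With the animal number as a replicate block edgeR called 0 genes (0 higher, 0 lower), with 3110 at an unadjusted p under 0.05. The numbers do not mark a shared origin in the labels. Controls and dehydrated animals share numbers 3 and 6, and their deviations correlated at a mean of 0.0190 over these 2 pairs against -0.00252 over 14 others. Numbers 1, 2 and 4 are shared with rehydrated animals, and those pairs were not checked. On this basis the animals were not treated as paired. The median of the immune-term genes turned from -0.40 (254 genes) to 0.32 (248 genes) without CM01, chosen after seeing the data. The sign turned for genes that were not called. AQP6 was at -0.16 with the block and -0.011 to 0.34 when 1 animal was left out. AQP7 was at 0.11 with the block, 0.026 without CM01 and RHM01 together and -0.17 to 0.17 when 1 animal was left out. AQP8 was at -0.44 with the block and -0.34 to 0.45 when 1 animal was left out, and PPIA at -0.031 to 0.10. For ENSJJAG00000024274, rehydration minus dehydration was -0.028 to 0.12 when 1 animal was left out.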
